A study of Brassica rapa with 6 samples.

Results

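The loci described here are 2679 of the 49200 loci in a deposited expression table of *Brassica rapa*: those with an empty gene name whose span, from start to end, overlapped no locus with a gene name on the same chromosome on either strand. They lie between the annotated loci and carry only the identifier given by the authors' transcript assembly (MSTRG followed by a number). Of 2843 loci without a gene name, the other 164 overlapped a named locus and were left out, and 46357 loci had a gene name. The choice used positions and names only, no expression value.

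RNA was measured in petiole and leaf of baby Chinese cabbage, an inbred line given no treatment and sampled at maturity. There were 3 petiole libraries and 3 leaf libraries, made from total RNA after ribosomal RNA removal as strand-specific libraries, per the labels. The petiole is the stalk that carries the leaf blade, and the comparison of the 2 tissues is the one the design gives. Whether each library is its own plant is not stated in the labels. A p-value here therefore sets the difference between the tissues only against the spread of the libraries within a tissue, and that spread may be technical.

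Transcript assembly joins overlapping reads into transcripts without relying on an annotation, so reads that fall between genes form loci of their own. Such loci can be long non-coding RNAs, genes missing from an annotation, detached ends of neighbouring genes or copies of repeats, and an assembly identifier does not separate these kinds. Plants transcribe many intergenic stretches at low levels, and ribosomal RNA removal keeps transcripts without a poly(A) tail that poly(A) selection would lose. No role is given to any locus here, because the files annotate none.

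Petiole libraries held 120805715 to 132861243 counted units over all loci and leaf libraries 111518411 to 121161682. By estimate, 1 sequenced fragment added about 3.76 units. Across loci, libraries of 1 tissue correlated at 0.988 to 0.989 and libraries of different tissues at 0.846 to 0.853. Marker genes followed the tissue labels: 23 of 24 tested chlorophyll a-b binding loci and 3 of 3 Rubisco small chain loci were higher in leaf, and 4 of 4 NPR5 and NPR6 loci (relatives of BLADE-ON-PETIOLE) were higher in petiole. Summed CPM of the chlorophyll a-b binding loci was 368 to 402 in petiole and 4040 to 4450 in leaf. That of the Rubisco small chain loci was 9.68 to 10.9 in petiole and 1700 to 1860 in leaf, and that of NPR5 and NPR6 loci was 14.5 to 17.5 in petiole and 0.83 to 1.49 in leaf. Vascular markers also differed: 4 of 4 tested loci for the secondary-wall cellulose synthases CESA4, CESA7 and CESA8 were higher in petiole, at a summed CPM of 54.8 to 72.5 in petiole and 19.1 to 26.9 in leaf, while 2 of 2 SUC2 loci (phloem sucrose loading) were lower in petiole, at 57.8 to 64.6 in petiole and 158 to 178 in leaf. Of 19 tested LIGHT-DEPENDENT SHORT HYPOCOTYLS loci, 16 were higher in petiole and 1 was lower. The part of tissue makeup in the results below was not tested, and in bulk tissue fewer cells of a type and less RNA per cell cannot be told apart.

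The intergenic loci were short and mostly of simple structure. Their median span was 794 bases, with 5th and 95th percentiles of 219 and 5020 bases, against a median of 1571 bases for named loci. A single assembled transcript made up 2328 of them (86.9%), against 69.5% of named loci, and the most transcripts at 1 intergenic locus was 17. No strand was assigned to 1220 of them (45.5%), against 1.83% of named loci, while 724 were on the plus and 735 on the minus strand. For a locus without a strand, reads from both strands of the genome are counted as one.

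Transcribed length could be estimated for 2634 intergenic loci from the ratio of their counts to their FPKM (fragments scaled to transcript length and to library size), because that ratio is set by length. The median estimated length was 618 bases, against 1320 bases for named loci. Among 1440 stranded intergenic loci with an estimate, 965 (67.0%) had a transcribed length under 90% of their span, as a spliced transcript has, against 73.5% of stranded named loci. The other 475 are called unspliced here, but this cut does not exclude a short intron. MSTRG.10253, for example, had an estimated 1710 transcribed bases in a span of 1890. Strandless loci had a median span of 376.5 bases and a median mean FPKM of 0.711. Stranded loci were longer and higher: spliced ones had a median span of 1662 bases and a median mean FPKM of 1.97, and unspliced ones 996 bases and 1.78.

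The loci were spread over all 10 chromosomes, from 4.73% of the loci of A10 to 6.33% of those of A08. Their median distance to the nearest named locus was 2116 bases (quartiles 619 and 4479), against 873 bases between a named locus and its nearest named neighbour. Within 200 bases of a named locus lay 272 of them, 1798 were at least 1000 bases away and 583 over 5000 bases away. Where the neighbour had a strand, the intergenic locus lay on its 5′ side in 1622 cases and on its 3′ side in 999, so 61.9% were on the 5′ side. Most (1772) stood alone between other loci, while 365 fell into 99 runs of at least 3 consecutive intergenic loci, and 148 overlapped another intergenic locus.

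Levels were low for most of the loci and very high for a few. A mean of at least 1 FPKM was reached by 1616 of the 2679 loci in petiole and 1308 in leaf, at least 10 FPKM by 311 in petiole and 203 in leaf, and at least 100 FPKM by 33 in petiole and 23 in leaf. Among the 2451 loci (91.5%) that passed the filter on low counts, the median mean FPKM was 1.45 in petiole and 1.09 in leaf, against 4.75 in petiole and 3.03 in leaf for the 28868 named loci tested. The 228 loci that did not pass had a median mean FPKM of 0.289. The FPKM scale differs between the tissues: 1 FPKM over 1 base stood for 0.138 to 0.154 counted units in petiole libraries and 0.176 to 0.181 in leaf libraries, so FPKM is used here for levels within a tissue, and tissues are compared on CPM, the counted units scaled to library size with TMM factors.

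The most abundant intergenic locus in both tissues was MSTRG.11864, a 304-base unspliced locus on the minus strand of A04 (A04:16656104-16656407, in the table's coordinates, whose genome build is not given in the sources used here). It had a mean of 21481 FPKM in petiole and 11343 in leaf, and ranked 6th among all loci in petiole. Its level was 6809, 6526 and 6729.9 CPM in the petiole libraries and 6189, 4772 and 6731 CPM in the leaf libraries. The tissues overlapped, and the log2 fold change of 0.18 (SE 0.14; petiole minus leaf, as throughout) did not pass the threshold (edgeR adjusted p = 0.309). It was past the threshold, and higher in petiole, when libraries were scaled by their totals alone, with a log2 fold change of 0.49 (edgeR adjusted p = 0.0202).

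MSTRG.30152, a strandless 1663-base locus on A10 (A10:16120829-16122491), lay 77 bases from a locus described as TIC 40, a chloroplast protein import component. Its level was 3802, 3930.0 and 3958 CPM in petiole and 4756, 4931 and 5089 CPM in leaf, lower in every petiole library than in any leaf library (log2 fold change -0.34, SE 0.033, edgeR adjusted p = 6.76e-06). MSTRG.8926, a strandless 482-base locus on A03 (A03:20791906-20792387), had 1241, 1240.3 and 1231 CPM in petiole and 1524, 1539 and 1423 CPM in leaf (log2 fold change -0.27, SE 0.038, edgeR adjusted p = 0.000103). For both, the direction depended on the scale: on log2(FPKM + 1) the petiole minus leaf difference was 0.4 for MSTRG.30152 and 0.47 for MSTRG.8926.

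A larger difference separated the tissues at 2 short strandless loci. MSTRG.20082 on A07 (A07:18246186-18246523; 338 bases) had 176, 181 and 177 CPM in petiole and 1352, 1439.8 and 1370.1 CPM in leaf, and its log2 fold change was -2.96 (SE 0.04, edgeR adjusted p = 4.86e-12). MSTRG.4970 on A02 (A02:17376008-17376458; 451 bases) had 101, 98.8 and 98.5 CPM in petiole and 1091, 1086 and 976 CPM in leaf, with a log2 fold change of -3.40 (SE 0.051, edgeR adjusted p = 8.69e-12). The libraries of each tissue were close together at both loci and far from those of the other tissue. MSTRG.30585 on A10 (A10:18575671-18576103; 433 bases), which lay 633 bases from a locus described as a putative SUC6 sucrose transporter, was slightly higher in petiole, at 446, 464 and 474 CPM in petiole and 376, 369.8 and 389 CPM in leaf (log2 fold change 0.29, SE 0.038, edgeR adjusted p = 7.73e-05).

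**Figure D1:**
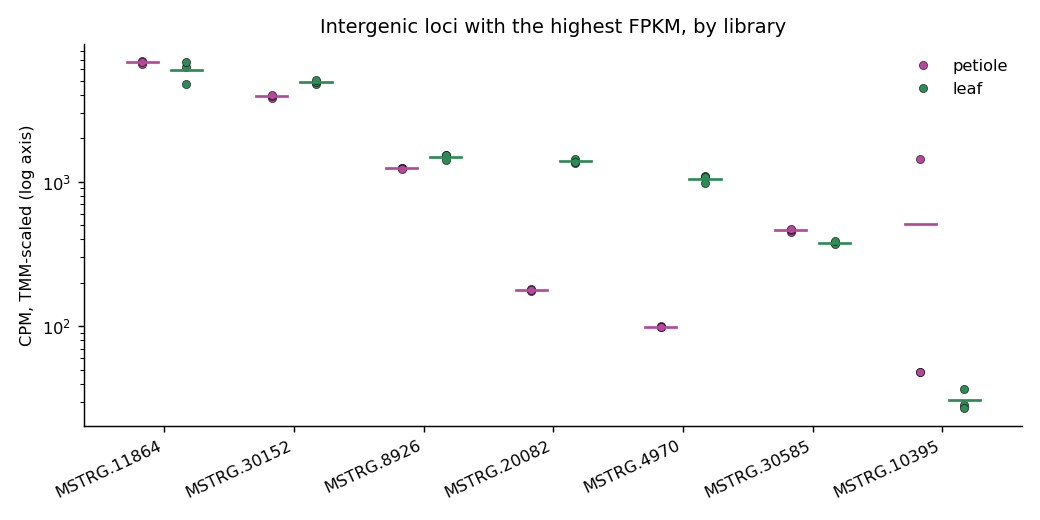
Level of the 7 intergenic loci with the highest mean FPKM in either tissue, in TMM-scaled CPM (log axis), with a point for each of 3 petiole and 3 leaf libraries and a line at the tissue mean. Petiole and leaf lie far apart at MSTRG.20082 and MSTRG.4970, and a single petiole library sets the mean at MSTRG.10395.

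MSTRG.10395, a spliced plus-strand locus on A03 (A03:37827300-37830138; 2839 bases), owed its place among the highest petiole means to 1 library. It had 1434, 48.3 and 48 CPM in petiole libraries 1, 2 and 3 and 28.5, 27.1 and 36.8 CPM in the leaf libraries. With all libraries the log2 fold change of 4.05 (SE 1.79) did not pass the threshold (edgeR adjusted p = 0.122), and without petiole library 1 it was 0.64 (edgeR adjusted p = 0.00293). Some loci in 1 library were at least 5-fold above both other libraries of the tissue: petiole libraries 1, 2 and 3 had 4, 2 and 2 such loci among the 1603 tested with a mean of at least 1 FPKM in petiole, and leaf libraries 1, 2 and 3 had 1, 0 and 2 among 1303 with at least 1 FPKM in leaf. By the same rule, named loci numbered 6, 7 and 4 of 22793 in petiole libraries 1, 2 and 3, and 1, 5 and 3 of 20499 in leaf libraries 1, 2 and 3. The difference between intergenic and named loci in this count was not tested.

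As a share of all counted units, the intergenic loci held 3.92%, 3.6% and 3.69% in the petiole libraries, against 3.36%, 3.24% and 3.55% in the leaf libraries. The means were 3.74% ± 0.164 in petiole and 3.39% ± 0.158 in leaf (SD, n = 3 each), a difference of 0.353 percentage points. All petiole libraries were above all leaf libraries, and the exact two-sided permutation test gave p = 0.1, the smallest that 3 against 3 allows. Much of the sum came from a few loci: the 10 with the most counts held 44.8% to 46.0% of the intergenic counts in petiole and 45.1% to 47.9% in leaf, and MSTRG.11864 alone 19.7% to 20.2% in petiole and 13.0% to 17.5% in leaf. Without MSTRG.11864 the difference was 0.14 points (exact permutation p = 0.2). The direction turned with the denominator: it was -0.388 points, at 4.03% ± 0.176 in petiole and 4.41% ± 0.1 in leaf, once the named loci that were the most abundant in any library (MSTRG.17036, MSTRG.17038 and MSTRG.21867) were left out, and -0.512 points, at 6.05% ± 0.268 in petiole and 6.56% ± 0.102 in leaf, as a share of summed FPKM (SD, n = 3 each; exact permutation p = 0.1 for both).

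Between the tissues, 1250 of the 2451 tested intergenic loci (51.0%) passed the threshold of an adjusted p under 0.05 (edgeR's quasi-likelihood test, Benjamini-Hochberg adjusted across the whole table), against 62.6% of all 31473 loci tested. The higher level was in petiole at 567 of them (23.1% of those tested) and in leaf at 683 (27.9%), while the shares over all loci were 31.5% and 31.1%. The intergenic share was below that of all loci in both directions, and 1332 of the loci had an unadjusted p under 0.05. Scaling by library totals alone kept the number at 1250 but put 721 of them higher in petiole and 529 lower, so that 57.7% of the calls were higher in petiole rather than 45.4%. On log2(FPKM + 1), tested with limma, 1593 passed, 1131 higher in petiole and 462 lower. These scales move every locus: the median log2 difference of all loci tested was 0.01 with TMM scaling, 0.32 with library totals and 0.47 on log2(FPKM + 1). On counts and on log2(FPKM + 1), 1243 of the 1250 loci lay on the same side of that median. Both scales rest on the same counts, so this is not separate evidence for the directions.

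At least 2-fold differences past the threshold were found at 913 intergenic loci (37.3%), close to the 34.5% of all loci tested. By direction, 414 were higher in petiole (16.9%) and 499 lower (20.4%), against 17.2% and 17.3% of all loci tested. The median absolute log2 fold change of the tested intergenic loci was 1.08, against 0.78 over all loci, and their median log2 fold change was -0.08, against 0.01. The tested intergenic loci include 67 at 0 in every leaf library and 31 at 0 in every petiole library, which have no exact fold change. Replicate spread was also larger at intergenic loci of the same level (below). The part of either in the larger median absolute change was not tested. Petiole and leaf libraries did not overlap at 1545 intergenic loci (63.0%), against 71.3% of all loci tested.

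**Figure D2:**
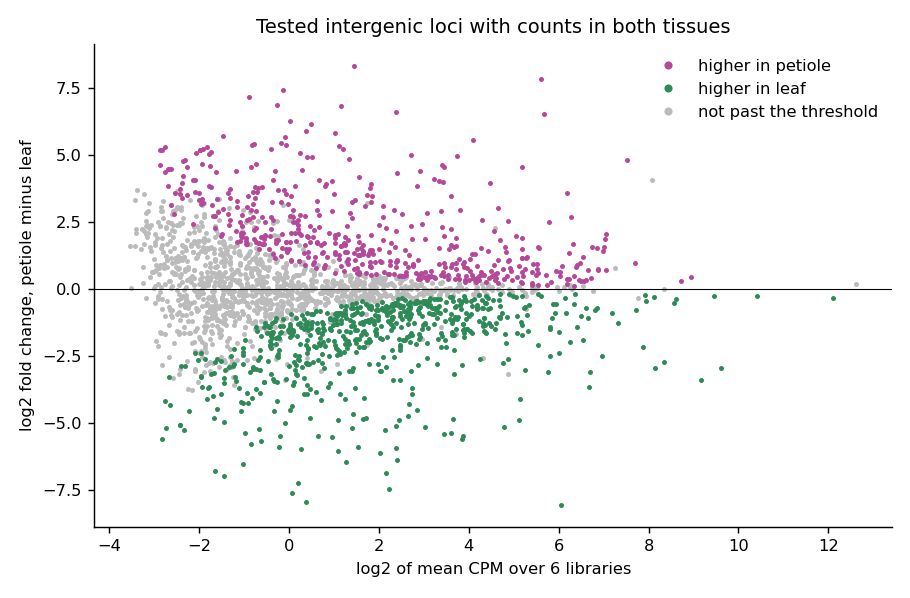
Log2 fold change, petiole minus leaf, against log2 mean CPM over the 6 libraries, with a point for each tested intergenic locus that had a count in both tissues, coloured by the test. Loci past the threshold lie on both sides of 0 over most of the range, and loci not past it reach larger fold changes at low CPM than at high CPM.

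The share called differed with the level, and not in equal steps. Among intergenic loci with a mean FPKM of 0.5 to 1, 36.4% passed the threshold, against 42.9% of named loci in the same range. From 2 to 5 FPKM the shares were 61.1% of intergenic and 65.3% of named loci, and above 50 FPKM 85.2% of 61 intergenic loci and 91.1% of named loci. The intergenic share was the higher one from 5 to 10 FPKM, at 78.1% against 70.4%, and under 0.5 FPKM, at 38.5% against 33.7%. Replicate spread, as the median SD of log2(CPM + 0.1), was larger at intergenic loci of the same level. From 0.5 to 1 FPKM it was 0.5 in petiole and 0.48 in leaf, against 0.36 in petiole and 0.38 in leaf at named loci. From 2 to 5 FPKM it was 0.21 in petiole and 0.2 in leaf, against 0.17 in both tissues at named loci. The added 0.1 lowers the SD most at low CPM. Intergenic loci are shorter, so the same FPKM rests on fewer fragments, and the part of this in the spread was not tested.

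**Figure D3:**
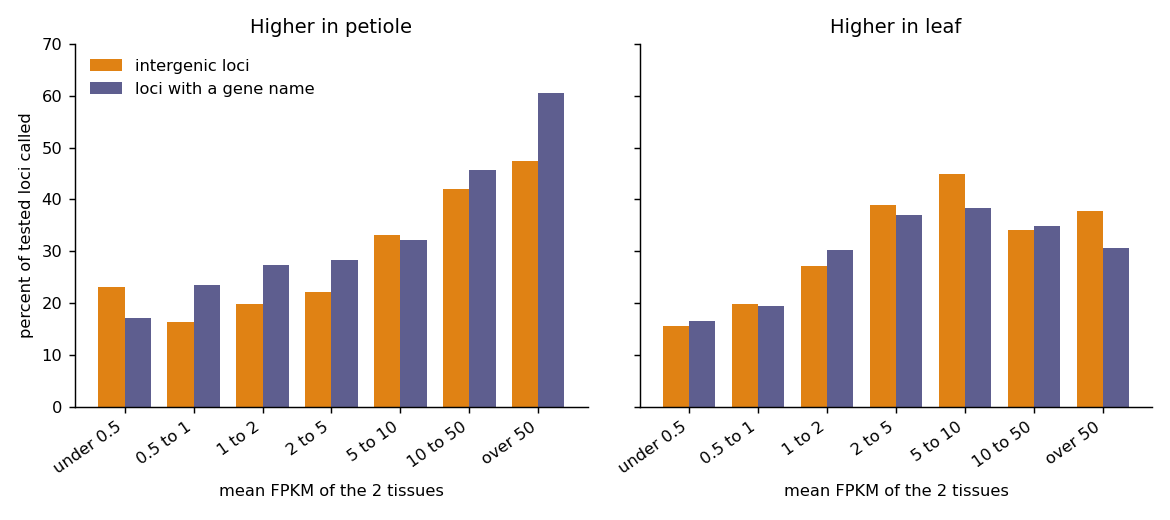
Percent of tested loci past the threshold and higher in petiole (left) or higher in leaf (right), by mean FPKM of the 2 tissues. Intergenic loci are orange and loci with a gene name are blue. FPKM is higher in petiole at the same CPM, which moves loci higher in petiole towards the higher bins. Above 50 FPKM, 47.5% of intergenic and 60.5% of named loci were higher in petiole; the share higher in leaf peaked from 5 to 10 FPKM, at 44.9% of intergenic and 38.3% of named loci, and was lower above that.

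By structure, strandless loci passed the threshold least often: 208 of 1051 tested were higher in petiole (19.8%), 236 were lower (22.5%) and 607 did not pass. Of 939 tested spliced loci, 249 were higher in petiole (26.5%) and 277 lower (29.5%). Stranded loci called unspliced, which may include some with a short intron, leaned to leaf, with 110 of 461 higher in petiole (23.9%) and 170 lower (36.9%). Over all loci tested, 31.5% were higher in petiole and 31.1% lower. The median log2 fold change was -0.31 for unspliced loci, against -0.02 for spliced loci, -0.06 for strandless loci and 0.01 for all loci tested. All intergenic loci from 2 to 5 FPKM also leaned to leaf (22.2% higher in petiole, 38.9% lower), while those under 0.5 or above 10 FPKM leaned to petiole. Strandless loci were also the ones with the lowest levels, and the part of level in these shares was not tested.

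Some loci had no count in any library of a tissue. In leaf, 67 tested intergenic loci were at 0 in all 3 libraries (2.73%, against 1.51% of all loci tested), and in petiole 31 were (1.26%, against 1.16%). These loci passed the filter through the tissue where they were present, so they had to differ, and all of them passed the threshold. The adjusted p-values printed below for single loci of this kind therefore add no evidence of a difference. A fold change against a tissue at 0 is given as a bound, from a floor of 3 fragments or 12 units per library, which is 0.0846 CPM in petiole and 0.115 CPM in leaf. Loci absent from leaf were at least 1.37-fold to at least 49.4-fold higher in petiole (median bound 2.65, 8 at 10 or above), and loci absent from petiole were at least 4.04-fold to at least 47.7-fold lower there (median bound 11.4, 18 at 10 or above). A further 93 untested loci were at 0 in leaf and 28 at 0 in petiole.

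The locus farthest above the floor in petiole was MSTRG.12294, a spliced plus-strand locus on A04 (A04:20130562-20133343) with an estimated transcript of 2062 bases. It had 5.67, 5.43 and 6 CPM in petiole and none in any leaf library, which puts petiole at least 49.4-fold higher (edgeR adjusted p = 7.85e-08). Its nearest named locus, 1089 bases downstream on the same strand and described as autophagy-related protein 18c, did not pass the threshold, with 11.7, 9.86 and 12.1 CPM in petiole and 11.3, 11.1 and 12 CPM in leaf. MSTRG.17369, a spliced minus-strand locus on A06 (A06:19580084-19585347), had 5.65, 4.13 and 5 CPM in petiole against 0 in leaf, or at least 42.7-fold higher (edgeR adjusted p = 2.03e-07). Its span of 5264 bases held an estimated 1259 transcribed bases, so most of it was not in the transcript.

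MSTRG.4617, a strandless locus on A02 (A02:13261247-13262677), had 3.11, 3.22 and 2.28 CPM in petiole, and no leaf library had a count (petiole at least 24.9-fold higher, edgeR adjusted p = 1.22e-06). It lay 672 bases from a locus described as an isoflavone reductase homolog, which was itself higher in petiole at 115, 129 and 124 CPM in petiole and 7.27, 7.79 and 9.32 CPM in leaf. On A09, MSTRG.25181 (A09:8006117-8007644) on the plus strand had 3.08, 2.01 and 3.34 CPM in petiole and none in leaf (at least 24.4-fold higher in petiole, edgeR adjusted p = 1.94e-06). The same start position is that of MSTRG.25182 on the minus strand (to base 8007058), which had 104, 98.5 and 101 CPM in petiole and 0.893, 1.1 and 1.27 CPM in leaf (log2 fold change 6.53, SE 0.11, edgeR adjusted p = 2.01e-11). The petiole mean was 105 FPKM at MSTRG.25182 and 2.01 FPKM at MSTRG.25181. Whether the counting used strand is not given in the sources used here, so reads of the 2 loci cannot be told apart by strand.

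The other loci absent from leaf that the naming rule picked were less far above the floor. In petiole MSTRG.13795 had 3.29, 1.87 and 1.17 CPM (at least 18.3-fold higher than in leaf), and MSTRG.18332 had 1.89, 1.25 and 1.34 CPM (at least 12.9-fold). MSTRG.28098 had 1.6, 1.47 and 0.613 CPM there (at least 10.6-fold), and MSTRG.29210 had 1.62, 0.514 and 1.54 CPM (at least 10.6-fold). MSTRG.18332 lay 208 bases from MSTRG.18331, an uncharacterized protein locus that was also higher in petiole, at 1.47, 1.49 and 1.79 CPM in petiole and 0.118, 0 and 0.0388 CPM in leaf. MSTRG.13795 lay 276 bases from a named locus that did not pass the threshold. MSTRG.28098 lay 360 bases from a locus described as DETOXIFICATION 12-like, which did not pass it either. That locus had a lower mean in petiole, at 1.87, 5.75 and 5.27 CPM in petiole and 7.53, 23 and 18.2 CPM in leaf. The named locus nearest to MSTRG.29210 was too low to be tested.

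In the other direction, MSTRG.10654 on A04 (A04:2155050-2156672) was farthest below. It had 0 CPM in every petiole library and 3.91, 4.33 and 3.85 CPM in leaf, at least 47.7-fold lower in petiole (edgeR adjusted p = 1.93e-07). This spliced locus lay 152 bases upstream of MSTRG.10655 on the same strand, a named locus of no stated function that was also lower in petiole, at 0.225, 0.0563 and 0.314 CPM in petiole and 7.61, 9.03 and 7.36 CPM in leaf. MSTRG.16934, a strandless locus on A06 (A06:12911434-12912348), had 0 CPM in petiole and 2.43, 1.94 and 2.14 CPM in leaf, at least 25.7-fold lower in petiole (edgeR adjusted p = 2.27e-06). Its neighbour MSTRG.16935, 918 bases away, had 0.0729, 0.134 and 0.0299 CPM in petiole and 8.38, 7.22 and 7.16 CPM in leaf.

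The same pattern held at MSTRG.28756 on A10 (A10:443364-443890), which had 0 CPM in petiole and 2.56, 1.35 and 1.73 CPM in leaf (at least 22.2-fold lower in petiole) and lay 247 bases upstream of MSTRG.28757, a locus with 0, 0.0845 and 0 CPM in petiole and 6.72, 7.51 and 7.79 CPM in leaf. MSTRG.28164 on A09 had 0 CPM in petiole and 1.25, 1.93 and 2.08 CPM in leaf (at least 20.7-fold lower), and its named neighbour 186 bases away was also absent from petiole. At MSTRG.10890 (at least 24.1-fold lower), MSTRG.4470 (at least 20.7-fold) and MSTRG.29238 (at least 17.2-fold), the nearest named locus was too low to be tested. MSTRG.14015 on A05 went against its neighbour: it had 0 CPM in petiole and 1.44, 1.73 and 0.97 CPM in leaf, while the nearest named locus, 8427 bases away, was higher in petiole by a log2 fold change of 0.30.

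Larger absolute levels with a strong difference were found outside the naming rule, at loci chosen after their values were seen. At least 10 FPKM in the higher tissue, libraries that did not overlap and a call were found together at 266 intergenic loci (10.9% of the 2451 tested), against 26.1% of all loci tested. Of these, 153 were higher in petiole (6.24%, against 15.9% of all loci) and 113 lower (4.61%, against 10.3%). FPKM is higher in petiole at the same CPM: MSTRG.11246 had a mean of 29.8 CPM in both tissues, but 6.46 FPKM in petiole and 3.87 in leaf. The cut is thus easier to reach for loci higher in petiole, and the split between directions depends on it. MSTRG.7494, a spliced minus-strand locus on A03 (A03:9934454-9937262) with 3 transcripts, had the highest mean FPKM of those named here (192 in petiole), at 333, 363 and 359.6 CPM in petiole and 12.7, 13 and 11.6 CPM in leaf (log2 fold change 4.82, SE 0.062, edgeR adjusted p = 4.09e-12). MSTRG.20045 on A07 (A07:17969069-17970597), 2900 bases upstream of a locus described as ESKIMO 1, had 82, 104 and 107 CPM in petiole and 0, 1.25 and 0 CPM in leaf (log2 fold change 7.84, SE 1.24, edgeR adjusted p = 0.00589), so its leaf mean rests on 1 library. MSTRG.22169, MSTRG.25287 and MSTRG.7607 were also higher in petiole, with log2 fold changes of 5.56, 5.01 and 4.95.

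Among those lower in petiole, MSTRG.17168 on A06 (A06:17785237-17786913), a strandless locus of 1677 bases, differed most. It had 0.351, 0.556 and 0.583 CPM in petiole and 126, 132 and 139.8 CPM in leaf, a log2 fold change of -8.07 (SE 0.17, edgeR adjusted p = 5.84e-09), while its nearest named locus, 4916 bases away, did not pass the threshold. MSTRG.15530 on A06 (A06:1038827-1040094), a spliced plus-strand locus, had 1.52, 1.46 and 1.56 CPM in petiole and 55.4, 49.1 and 56.6 CPM in leaf (log2 fold change -5.15, SE 0.092, edgeR adjusted p = 2.3e-11). The locus 786 bases downstream of it on the same strand, described as lanC-like protein GCR2, went the other way with a log2 fold change of 0.71. MSTRG.14639, MSTRG.17655, MSTRG.4888 and MSTRG.22155 were lower in petiole as well, with log2 fold changes of -5.41, -5.39, -4.91 and -4.67.

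The direction of an intergenic locus was set beside that of its nearest named locus where both passed the threshold. Of 550 such pairs, 361 (65.6%) went the same way, against 57.5% of 8861 pairs of a named locus and its nearest named neighbour. The share was highest close by: 52 of 61 pairs (85.2%) within 200 bases, 51 of 69 (73.9%) beyond that and up to 500 bases, 59 of 84 (70.2%) up to 1000, 56 of 89 (62.9%) up to 2000, 88 of 154 (57.1%) up to 5000 and 55 of 93 (59.1%) farther away. Among named pairs it was 64.2% within 200 bases and 52.8% beyond 5000 bases. Across all pairs with both loci tested, Pearson's r between the log2 fold changes was 0.62 within 200 bases (215 pairs; Spearman's rho 0.58) and 0.13 beyond 5000 bases (262 pairs; rho 0.15). The 2 loci of a pair were counted from the same 6 libraries, so these are descriptions, and no test was made of them.

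**Figure D4:**
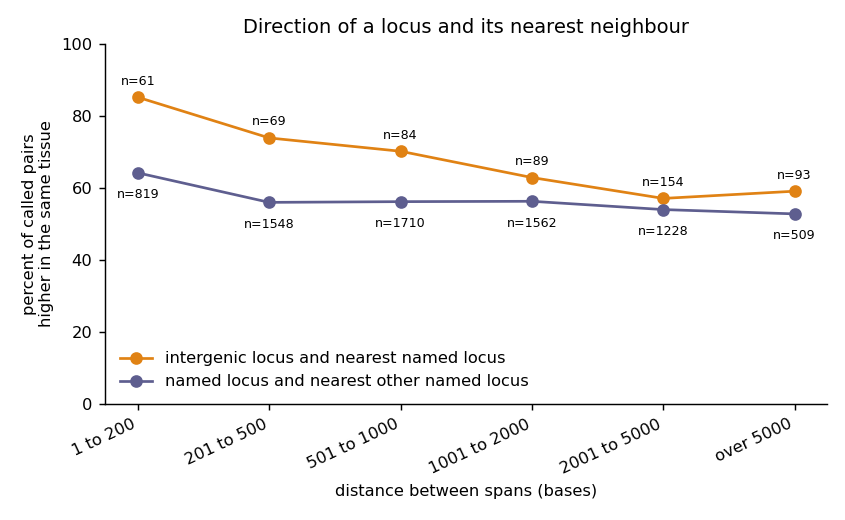
Percent of pairs that went the same way between petiole and leaf, by distance between the spans, for an intergenic locus with its nearest named locus (orange) and a named locus with its nearest other named locus (blue), both past the threshold, with the number of pairs beside each point. The intergenic pairs run from 85.2% within 200 bases to 59.1% beyond 5000, and the named pairs from 64.2% to 52.8%.

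Orientation could be read for 1434 intergenic loci whose own strand and neighbour's strand were given. An intergenic locus upstream of its neighbour on the same strand was the most frequent arrangement (527, 36.8%), followed by downstream on the same strand (312), convergent (304) and divergent (291). Among named pairs the convergent arrangement was the most frequent (32.7%), and upstream on the same strand made up 27.9%. Within 1000 bases, 24 of 30 called divergent pairs and 54 of 70 called upstream pairs went the same way, against 15 of 25 downstream and 23 of 36 convergent pairs. Called named pairs within 1000 bases went the same way in 56.0% of divergent, 57.2% of upstream, 59.2% of downstream and 56.4% of convergent cases. The intergenic share lay closest to the named one for downstream pairs, and these differences were not tested. Detached ends of the neighbouring gene cannot be told apart from separate transcripts in these files, and 72 intergenic loci lay within 50 bases of a named locus.

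Close pairs that went the same way included MSTRG.14452 on A05, an unspliced locus 187 bases upstream of a locus described as the ubiquitin ligase UPL6. It had 129, 135 and 124 CPM in petiole and 52.1, 54.3 and 61.7 CPM in leaf (log2 fold change 1.21, SE 0.066, edgeR adjusted p = 7.12e-08), and the neighbour had 70.2, 67.5 and 73 CPM in petiole and 60.1, 59.7 and 61.2 CPM in leaf. The log2 fold change of the neighbour was 0.22, and the difference between the 2 loci was not tested. MSTRG.28873 on A10, 94 bases upstream of a casein kinase I-like locus, was lower in petiole like its neighbour, with log2 fold changes of -0.68 and -0.66. Its levels were 8.39, 10.5 and 11 CPM in petiole and 15.5, 16.2 and 16.3 CPM in leaf.

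Opposite directions within 200 bases were seen at 9 pairs. MSTRG.2867 on A01 had 48.3, 51.2 and 49.6 CPM in petiole and 74.1, 80.4 and 65.4 CPM in leaf (log2 fold change -0.56, SE 0.072, edgeR adjusted p = 5.94e-05), while the locus 105 bases away on the same strand, described as the hydrophobic protein RCI2B, had 56.6, 58.1 and 55 CPM in petiole and 12, 12.2 and 9.57 CPM in leaf. MSTRG.12008 on A04 was higher in petiole, at 42.1, 50.2 and 49.4 CPM in petiole and 26.8, 32.8 and 25.8 CPM in leaf (log2 fold change 0.73, SE 0.10, edgeR adjusted p = 0.000163). Its neighbour 182 bases away, described as urease accessory protein G, was lower in petiole, at 27.9, 28.3 and 29.1 CPM in petiole and 54.1, 49.2 and 50.3 CPM in leaf. MSTRG.14579, 4 bases from an uncharacterized protein locus on the opposite strand, had a log2 fold change of -2.29 against 0.66 for that locus.

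Many intergenic loci had no neighbour to be read against. For 824 tested loci, 413 of them past the threshold, the nearest named locus was too low to be tested, and for 287 called loci the neighbour was tested and did not pass. The strandless loci MSTRG.20082 and MSTRG.4970 both had a nearest named locus at or near 0 in every library.

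Of the 99 runs of at least 3 consecutive intergenic loci, 51 held at least 2 called loci. Among these 51, 17 had all of their called loci higher in petiole, 24 had all lower and 10 had both. Of the 336 tested loci in the 99 runs, 51.2% were called, against 51.0% of all intergenic loci and 62.6% of all loci tested; runs of named loci were not tallied. On A03 (A03:35487993-35519104), 5 of 5 loci over 31112 bases were lower in petiole. In this run MSTRG.10319 had 0.537, 0.394 and 0.396 CPM in petiole and 12, 10.5 and 13.6 CPM in leaf, and MSTRG.10321 had 0.159, 0.106 and 0.0748 CPM in petiole and 6.45, 8.26 and 9.2 CPM in leaf. The tissues did not overlap at either locus. The spans of 2 of the 5 loci overlapped each other, and whether their transcripts share sequence was not tested.

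On A08 (A08:22903964-22954607), 7 of 8 loci were higher in petiole and MSTRG.24067, at the start of the run, was lower. MSTRG.24067 had 1.52, 1.03 and 1.89 CPM in petiole and 10.01, 8.39 and 7.3 CPM in leaf (log2 fold change -2.53, SE 0.24, edgeR adjusted p = 4.78e-06). The 7 others were strandless and low, and MSTRG.24072, for example, had 2.78, 3.56 and 3.57 CPM in petiole and 2.08, 1.07 and 1.68 CPM in leaf. On A07 (A07:28738836-28805257), the longest run held 10 loci over 66422 bases, of which 9 were tested, 5 were higher in petiole and none was lower. Its most abundant locus, MSTRG.21647, had 5.64, 4.08 and 5.64 CPM in petiole and 2.45, 1.8 and 1.41 CPM in leaf (log2 fold change 1.44, SE 0.25, edgeR adjusted p = 0.000462), and 7 of the 10 overlapped another one.

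The run on A02 (A02:25720363-25768692) mixed both directions. MSTRG.5429, a spliced plus-strand locus, was higher in petiole at 100.1, 109.9 and 109.9 CPM in petiole and 44.9, 41.7 and 40.6 CPM in leaf (log2 fold change 1.33, SE 0.059, edgeR adjusted p = 1.29e-08). The other 6 loci were lower in petiole, among them MSTRG.5430, the next locus along, on the minus strand, with 27.7, 27.3 and 31.5 CPM in petiole and 82.1, 90.3 and 75.6 CPM in leaf (log2 fold change -1.52, edgeR adjusted p = 5.24e-08). A run of 9 loci on A03 (A03:37817699-37862289) held MSTRG.10395 and MSTRG.10393, which overlap on the plus strand. MSTRG.10393 had 212, 146 and 216 CPM in petiole and 328, 218 and 181 CPM in leaf and did not pass the threshold, and of 8 tested loci in this run 1 was higher in petiole and 3 were lower.

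**Figure D5:**
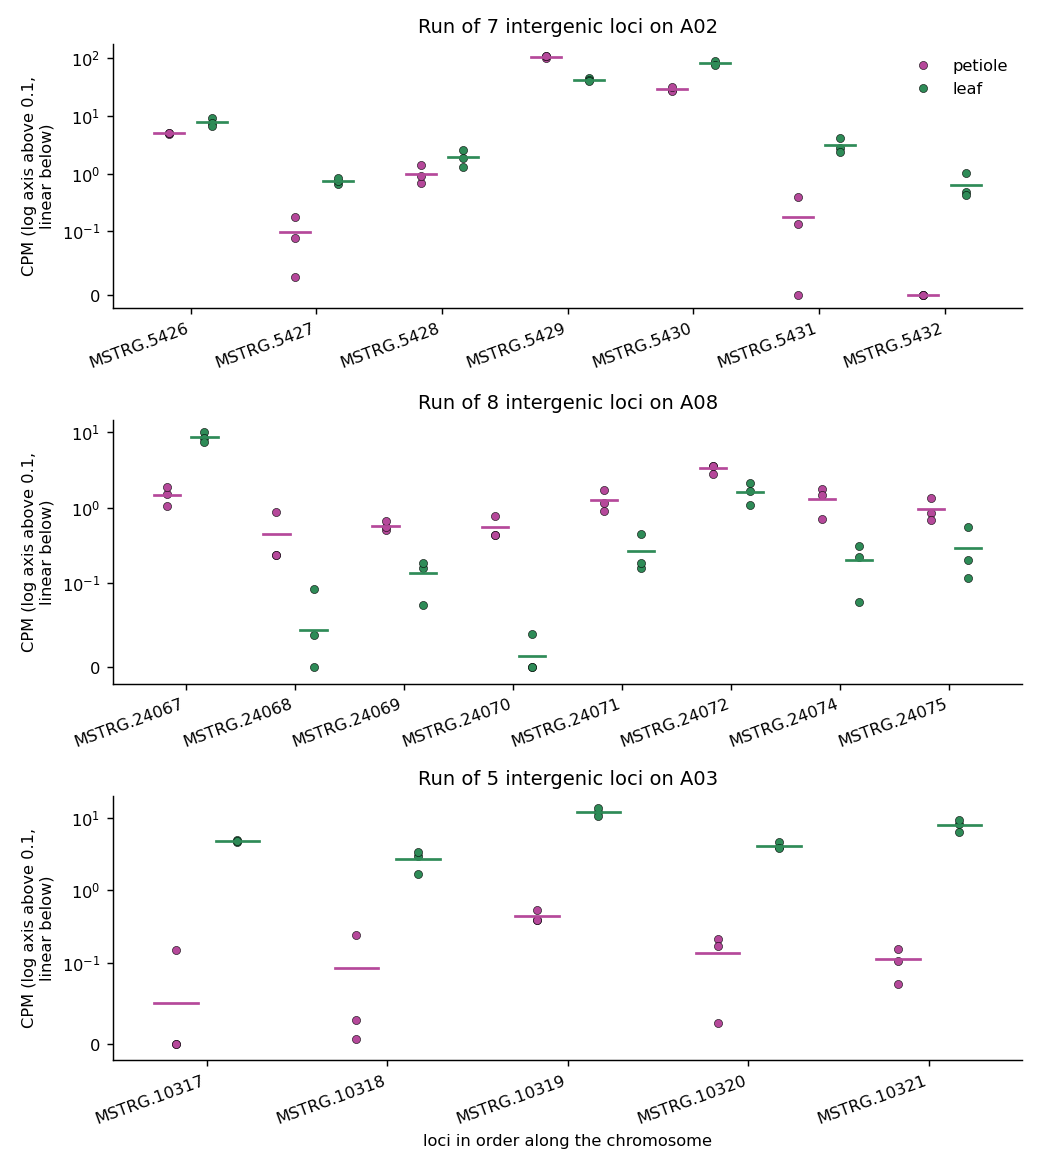
Level of each locus in 3 runs of consecutive intergenic loci, in CPM (axis logarithmic above 0.1 and linear below), in order along the chromosome, with a point for each of 3 petiole and 3 leaf libraries and a line at the tissue mean. In the run on A03 all 5 loci are lower in petiole, in the run on A08 7 of 8 are higher in petiole, and in the run on A02 MSTRG.5429 stands against the other 6.

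The longest and the most isolated loci showed every outcome. MSTRG.29210 on A10 (A10:6701191-6724585) had the longest span of those tested, 23395 bases, with an estimated transcript of 701 bases, and was absent from leaf. MSTRG.10702 on A04 (A04:2706725-2727491), of 20767 bases, had 0.424, 0.296 and 0.718 CPM in petiole and 1.67, 1.58 and 1.56 CPM in leaf (log2 fold change -1.74, SE 0.42, edgeR adjusted p = 0.00414). MSTRG.25638 on A09 (A09:13269076-13289226), of 20151 bases with an estimated 15316 transcribed bases, had 42.6, 30.7 and 41.6 CPM in petiole and 10.8, 7.41 and 7.68 CPM in leaf (log2 fold change 2.15, SE 0.19, edgeR adjusted p = 2.97e-05). Of the 3 tested loci farthest from any named locus, MSTRG.29205 on A10 (A10:6680680-6685151), 45808 bases away, was lower in petiole at 0.914, 0.845 and 0.718 CPM in petiole and 25.4, 22.4 and 25.1 CPM in leaf (log2 fold change -4.87, SE 0.13, edgeR adjusted p = 3.73e-10). MSTRG.26150, 45670 bases away, was higher in petiole at 0.305, 0.113 and 0.404 CPM in petiole and 0.0196, 0 and 0 CPM in leaf (edgeR adjusted p = 0.012), but not without petiole library 3 (edgeR adjusted p = 0.0517). MSTRG.29202, 49157 bases away, had 0.305, 0.268 and 0.561 CPM in petiole and 0.206, 0.0653 and 0.0582 CPM in leaf and did not pass.

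Flat loci were found at several levels. MSTRG.11246 on A04 (A04:9974420-9979675), a spliced locus of 5256 bases, had 29.5, 30.4 and 29.7 CPM in petiole and 28.5, 29.7 and 31.1 CPM in leaf (log2 fold change 0.00, SE 0.065). MSTRG.29818 on A10 (A10:13903719-13905319) had 4.76, 4.3 and 3.8 CPM in petiole and 4.38, 4.84 and 3.62 CPM in leaf (SE 0.18). Their tissues overlapped, and the direction of so small a difference depends on the scaling: on log2(FPKM + 1) MSTRG.11246 was higher in petiole by 0.62 and MSTRG.29818 by 0.51. MSTRG.10254 and MSTRG.26348 were flat at under 1 CPM, where the SE of 0.52 and 1.20 leaves room for sizeable differences.

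At MSTRG.14485 on A05 (A05:22517591-22519044) a flat mean came from 1 library. This plus-strand locus had 22, 0 and 23.6 CPM in petiole libraries 1, 2 and 3 and 16.1, 15.7 and 13.9 CPM in leaf. MSTRG.14484, on the minus strand over nearly the same bases, had 21.9, 25.1 and 23.6 CPM in petiole and 16.1, 15.8 and 13.9 CPM in leaf, and was higher in petiole (log2 fold change 0.63, SE 0.091, edgeR adjusted p = 0.000143). Without petiole library 2, MSTRG.14485 was higher in petiole too, with a log2 fold change of 0.58 (edgeR adjusted p = 0.000922). The near-equal values of the 2 loci in the other libraries mean that their strands cannot be told apart here.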

How the data were processed

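The authors deposited 1 table of the whole series, in which each locus has an estimated count and an FPKM for every library, per the file headers. The counts are whole numbers that are not scaled to depth or length. Their low values pile up in part at multiples of about 3.76 units, taken here as the worth of 1 fragment. This step was sought within a fixed range. The alignment of low counts with it was weak, at 0.131 to 0.15 on a scale of 0 to 1, so the value is an estimate. The deposited FPKM is scaled to transcript length and library size, and is listed as 0.0001 where the count is 0. Bowtie 0.12.2 and a mouse build (mm8) stand in the submitters' processing notes with no role. Aligner, counter, plant genome build and counting strand: not given in the sources used here.

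Loci, distances and runs were taken from the table's coordinates, with no reference genome, so no sequence is printed. Estimated length was the count divided by FPKM and by a scale set for each library on strandless single-transcript loci, for loci with at least 50 units in all. A locus called spliced had an estimated length under 90% of its span. Stranded loci at or above 90% were called unspliced, and a short intron is not excluded for them.

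Petiole was compared with leaf by edgeR 4.0.16 (quasi-likelihood test, filterByExpr, TMM, robust, tissue as the only term) in R 4.3.3 over all 31473 loci that passed the filter, with Benjamini-Hochberg adjustment and a threshold of 0.05. The coefficient of biological variation was 26.5%. The SE printed with a log2 fold change is approximate. It was computed back from the test, as the absolute log2 fold change divided by the square root of its F statistic. Alternatives used DESeq2 1.42.0 and limma 3.58.1 on log2(FPKM + 1) and log2(FPKM + 0.1), other filters and scalings, counts divided into fragments, a replicate block and each library left out in turn. Bounds rest on a floor of 3 fragments at the estimated units per fragment, and cover counting error only. The fit was tested on simulated data.

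Loci named in the text were those with the largest calls in each direction at 1 FPKM or more in the higher tissue without overlap of the libraries (8 each), the highest means in each tissue (5 each), the longest and the farthest from named loci (3 each), the highest of the 5 longest runs, and the 5 flattest. Others are named as examples chosen after their values were seen: the tissue-biased loci of at least 10 FPKM, the close pairs, the members of runs and the overlapping pair on A05. The loci, lists and tests were chosen with earlier results of these data known. Same-numbered petiole and leaf libraries did not deviate together (r of 0.024, -0.006 and -0.004), so the numbers were not taken as pairs.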

Additional observations from a re-analysis of the deposited data

How the results depend on the processing

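Depth limits the low loci: below about 1 FPKM replicate spread is wide, and differences there may be missed. The number of intergenic loci past the threshold stayed within 1.5 times of 1250 under all alternatives run, up to 1593. The lowest numbers come from other sets of loci, so as counts they cannot be compared with 1250. They were 842 of 1625 tested loci at least 1000 bases from a named locus (51.8%, against 51.0% in the main set). The other was 852 of 1504 tested stranded unnamed loci without same-strand overlap (56.6%), of which 371 were higher in petiole. Leaving out each library in turn gave 1135 to 1172 calls, 492 to 553 higher in petiole and 617 to 678 lower. The number higher in petiole was 1131 with limma on log2(FPKM + 1) and 1133 on log2(FPKM + 0.1), against 567; both scales lie above TMM-scaled counts in petiole for loci in general. DESeq2 called 1332. The replicate block, for library numbers that do not pair the samples, gave 1102 calls, 477 higher in petiole and 625 lower. The share of library counts, 0.353 points higher in petiole, reversed to -0.512 on FPKM and to -0.388 without the most abundant locus of any library, and was 0.14 without MSTRG.11864, 0.146 without the 3 most abundant intergenic loci and 0.13 for loci at least 1000 bases from a named locus; leaving out each library gave 0.262 to 0.437. Within 2000 bases, 71.9% of called pairs went the same way, against 65.6% at any distance. Among 537 alternative values of 36 named loci, 518 stayed on their side of the threshold (25 of them, at loci not called, with the other sign), 2 lost the call, 11 gained it and 6 reversed: MSTRG.30152 at 0.4 on both FPKM scales, MSTRG.8926 at 0.04 with library totals and 0.47 on both FPKM scales, and MSTRG.14485 at 0.58 without petiole library 2 (edgeR adjusted p = 0.000922; -0.47 to 0.58 over the libraries left out). The causes were not tested. Alternatives chosen after seeing the data were the shares without the 3 most abundant loci and without the most abundant locus of any library, the calls without overlapping intergenic loci (1176), and the pairs counted once per neighbour (66.0%) or on log2(FPKM + 1) relative to the median (64.9%).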
